A study of Mus musculus with 6 samples.

Results

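Interferon-stimulated genes are the genes that cells switch on when an interferon binds its receptor, and 45 of them were followed here in mouse mammary tumors. The 45 were a named list of antiviral effectors, sensors, transcription factors and immunoproteasome subunits. They were picked by symbol for known interferon induction, with no threshold on their values here but with earlier results of these data known. All 45 were found among the 54232 gene identifiers of the count files, and all 45 passed the filter on low counts, as did 16752 genes in all. Both genotypes are NIC+. The NIC transgene uses the MMTV promoter to express activated ErbB2 and Cre from one transcript in mammary epithelial cells. In the 3 fx/fx tumors (libraries fx1, fx2 and fx3) both copies of the CdGAP gene, Arhgap31, carry sites that this Cre can recombine, and in the 3 wt/wt tumors (wt1, wt2 and wt3) both copies are wild type. CdGAP inactivates the GTPases Rac1 and Cdc42 by speeding their hydrolysis of GTP, and the series compares tumor gene expression between these genotypes. Because Cre comes from the same transgene, cells that do not use the promoter keep the gene in both genotypes. The age of the mice, the strain and whether each tumor came from its own animal are not given in the sources used here. The p-values weigh the genotype difference only against the variation between these libraries. Values per library stand in the order 1, 2, 3 of each genotype.

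Type I interferons signal through the receptor chains Ifnar1 and Ifnar2 and the kinases Jak1 and Tyk2 to Stat2, which joins Irf9 in a complex that binds the interferon-stimulated response element (ISRE) in target promoters. Interferon gamma signals through Ifngr1 and Ifngr2 and the kinases Jak1 and Jak2, and its target promoters often hold the gamma-activated site (GAS). In mammary tumors these programs are known both in the cancer cells and in infiltrating leukocytes, and they are linked to antigen presentation and immune surveillance.

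Promoter stretches of 8 of these genes are shown, 7 with the core of the ISRE and 1 with a GAS and no ISRE core. The RefSeq table of mouse promoters (GRCm38.p6, 250 bases before to 50 after each start) held 34 of the 45 genes. The core of the ISRE was searched as GAAA, any 2 bases and GAAA on both strands, and matched in 18 of these 34 genes (52.9%), against 3.99% of the 27025 genes in the table. The GAS was searched as TTCNNNGAA, which reads alike on both strands, and matched in 11 of 34 genes (32.4%), against 9.55% of all genes. Shown are 70 bases before the start, 5′ to 3′ on the strand of the gene, for the genes that differed most widely between tumors among those with an ISRE core (Ifit1, Ifit3, Ifit3b, Isg15), for a pair of near-identical paralogs (Oas1a and Oas1g), for the abundant Bst2 and for Irf1, whose windows held a GAS and no ISRE core. Capitals mark the ISRE core, and in Irf1 the GAS. The stretch of Bst2 also held a GAS match, at -136 from the start. It runs into the first ISRE match and is not marked. Matches that overlap run together in capitals.
Ifit1: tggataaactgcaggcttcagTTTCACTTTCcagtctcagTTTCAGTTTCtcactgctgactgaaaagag
Ifit3: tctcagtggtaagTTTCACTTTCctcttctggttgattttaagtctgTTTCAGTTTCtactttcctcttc
Ifit3b: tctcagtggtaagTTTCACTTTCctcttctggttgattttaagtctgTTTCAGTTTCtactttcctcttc
Isg15: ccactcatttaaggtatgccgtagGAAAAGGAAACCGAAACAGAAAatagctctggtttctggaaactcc
Oas1a: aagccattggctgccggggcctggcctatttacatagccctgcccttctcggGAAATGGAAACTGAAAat
Oas1g: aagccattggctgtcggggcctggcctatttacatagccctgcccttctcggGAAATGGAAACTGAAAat
Bst2: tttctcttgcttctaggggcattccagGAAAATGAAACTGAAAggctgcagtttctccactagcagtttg
Irf1: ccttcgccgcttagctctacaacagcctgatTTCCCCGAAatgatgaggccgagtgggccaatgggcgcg
These stretches lie at chr19:34640764-34640833, plus strand (Ifit1), chr19:34583360-34583429, plus strand (Ifit3), chr19:34607756-34607825, plus strand (Ifit3b) and chr4:156200851-156200920, minus strand (Isg15). The others lie at chr5:120907528-120907597, minus strand (Oas1a), chr5:120887614-120887683, minus strand (Oas1g), chr8:71537560-71537629, minus strand (Bst2) and chr11:53769893-53769962, plus strand (Irf1). The stretches of Ifit3 and Ifit3b were identical at 70 of 70 bases, and those of Oas1a and Oas1g at 69 of 70. Isg15 held 3 overlapping matches, the other ISRE-bearing stretches 2 each. A match is a description of the letters and not a measured binding site.

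Total counts were between 36732137 (fx2) and 53606276 (fx1) per library, and mitochondrial genes took between 1.81% and 2.93% of them. Levels are given as CPM, counts per 1000000 counts with TMM-scaled library sizes. Arhgap31 itself (ENSMUSG00000022799, chromosome 16, 38598340 to 38713274, minus strand, GRCm38) measured 155, 44.1 and 116 CPM in fx1 to fx3, against 664, 432 and 549 CPM in wt1 to wt3, and the genotypes did not overlap. Its edgeR adjusted p was 0.153, and DESeq2 gave an adjusted p of 3.21e-05. Of the 6 epithelial and luminal markers listed, Epcam measured 1748, 1641 and 2176 CPM in fx1 to fx3, against 1669, 1892 and 1542 CPM in wt1 to wt3. Krt19 was the lowest of the 6, at 5.65 CPM or less in every library. It did not overlap between genotypes, with an adjusted p of 0.0232 by DESeq2 and 0.237 by edgeR. In bulk tumors such as these, fewer cells of a type and less RNA per cell cannot be told apart.

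Most of the interferon-stimulated genes differed far more between tumors of the same genotype than between the genotypes. In 43 of 45 genes wt1 had the highest level (background 9.83%). In 42 of them fx2 came next, an order found in 2.73% of all genes tested. Summed over the 45 genes, the level was 1738, 5023 and 1125 CPM in fx1 to fx3, and 9523, 1407 and 2077 CPM in wt1 to wt3, an 8.46-fold span. The library fx3 was the lowest of all in 35 of the 45 genes (background 15.9%) and the lowest of the fx/fx libraries in 41 (background 31.9%). Each genotype therefore held a tumor with high levels of these genes and tumors with lower ones, and wt1 and fx2 were the highest 2 libraries in 43 of the 45 genes (background 5.25%), the exceptions being Isg20 and Ifi27. The genotype comparison is given with and without fx2 and with and without wt1.

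**Figure D1:**
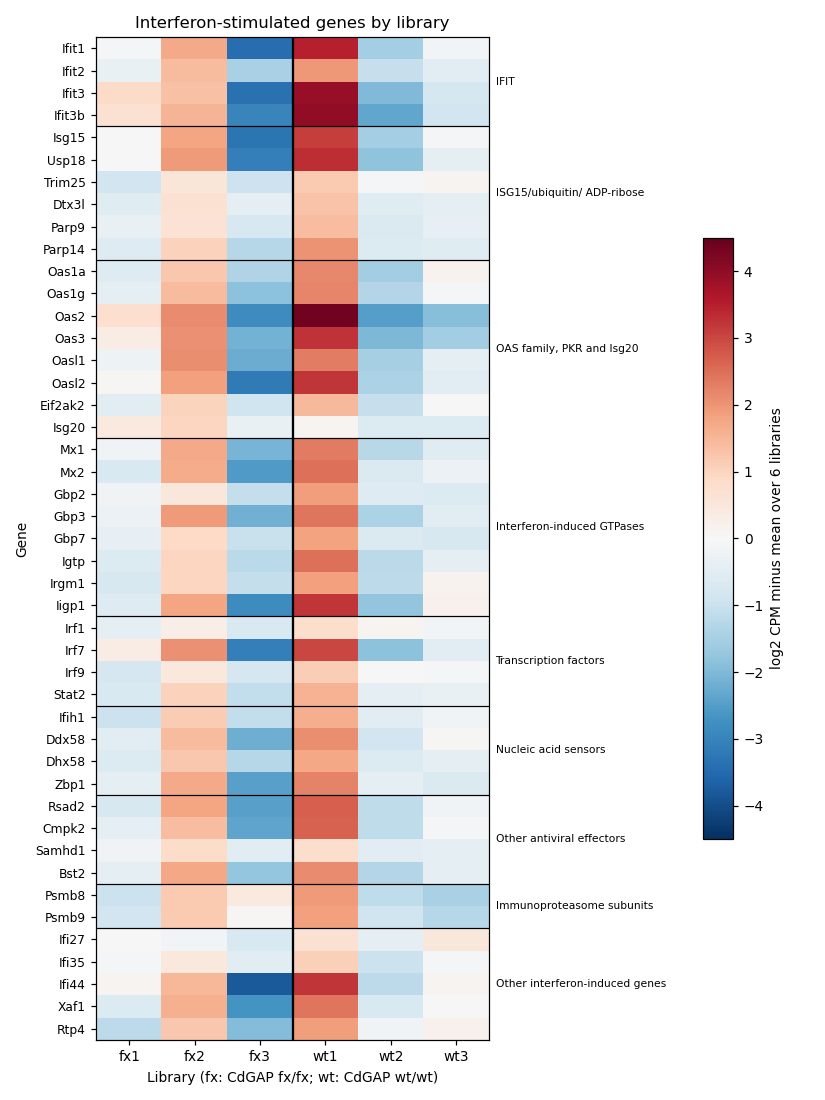
Level of each of the 45 genes (rows, grouped by role) in each library (columns, fx/fx left of the black line, wt/wt right of it), as log2 CPM minus the gene's mean over the 6 libraries, red above and blue below that mean. The columns of fx2 and wt1 are red for nearly all genes, with medians of 1.33 (fx2) and 2.12 (wt1), and fx3 is mostly blue, with a median of -1.73.

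Relative to each gene's mean over the 6 libraries, the median of the 45 genes on the log2 scale was -0.39, 1.33 and -1.73 in fx1 to fx3, and 2.12, -1.04 and -0.39 in wt1 to wt3. Over all genes tested the same medians lay between -0.01 and 0.04. The full order wt1, fx2, fx1, wt3, wt2, fx3 was shared by 16 genes, and 9 others differed from it only by fx1 and wt3 changing places. Within fx/fx, the highest library was fx2 in 44 of 45 genes (background 33.3%). Within wt/wt, wt1 was highest in 45 of 45 (background 24.0%). The ratio of the highest to the lowest library reached 4-fold in 33 genes within fx/fx, against 9.25% of all genes tested. Within wt/wt it did so in 38 genes, against 7.96% of all genes tested. It reached 4-fold in both genotypes in 33 genes, against 3.42% of all genes tested. The median ratio was 8.79 within fx/fx and 8.73 within wt/wt, where all genes tested had medians of 1.65 and 1.47. Counts of 23 or more lay behind every value of the 45 genes, the lowest being that of Oas3 in fx3.

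**Figure D2:**
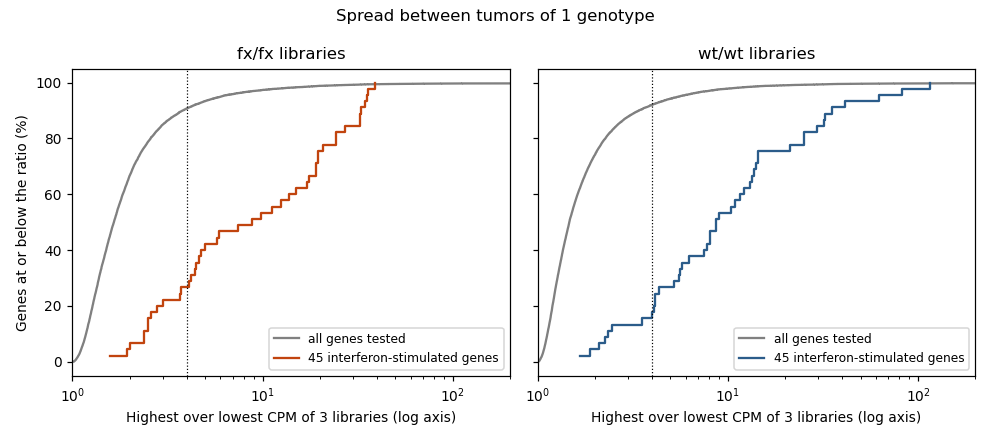
Cumulative share of genes (vertical axis, percent) whose highest library exceeds the lowest of the same genotype by no more than a given ratio (horizontal axis, log scale), for fx/fx on the left and wt/wt on the right. The colored line of the 45 genes lies to the right of the grey line of all 16752 genes tested, and 33 (fx/fx) and 38 (wt/wt) of the 45 lie at or beyond the dotted line at 4-fold.

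Levels of different genes were compared per length, as TPM (counts per exon length, scaled to 1000000 per library), averaged over the 6 libraries. The most abundant were Ifi27 at 546 TPM, Bst2 at 421, Iigp1 at 225, Isg15 at 221 and Psmb8 at 208 TPM. The least abundant were Oas3 at 3.22 TPM, Mx1 at 5.74, Oasl1 at 8.33 and Isg20 at 9.42 TPM. The median gene of the 45 had 54.3 TPM, against a median of 14.97 TPM for all genes tested. The range of each over the 6 libraries overlapped that of the next. Such ranges leave out that all genes were measured in the same libraries, and neighbours were not compared library by library.

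The IFIT proteins, which bind foreign RNA, spanned the libraries most widely as a group, with a summed level of 61.2, 167 and 8.22 CPM in fx1 to fx3, and 602, 19.04 and 43.8 CPM in wt1 to wt3. Ifit1 recognises RNA that lacks the methylated cap of host messages (ENSMUSG00000034459, chromosome 19, 34640871 to 34650009, plus strand). It measured 28.97, 101 and 2.81 CPM in fx1 to fx3, against 347, 10.7 and 28.3 CPM in wt1 to wt3. The tumor fx2 thus had a 35.9-fold higher level than fx3, and wt1 a 32.6-fold higher level than wt2. Ifit3, which stabilises Ifit1 on RNA, measured 13.8, 18.98 and 0.703 CPM in fx1 to fx3, against 116, 1.85 and 4.34 CPM in wt1 to wt3, and its 164.6-fold span between libraries was the widest of the 45 genes. Its paralog Ifit3b measured 9.73, 17.7 and 0.727 CPM in fx1 to fx3, against 95.8, 1.16 and 3.29 CPM in wt1 to wt3. Reads that align equally well to both copies are not counted under the options in the file headers, so the split between Ifit3 and Ifit3b is uncertain. Ifit1, Ifit3 and Ifit3b placed the 6 libraries in the same order. Ifit2, a partner of Ifit1 and Ifit3, spanned less, at 8.71, 29.7 and 3.98 CPM in fx1 to fx3, against 43.5, 5.38 and 7.79 CPM in wt1 to wt3. The genotypes overlapped for all 4 genes, and their edgeR adjusted p lay between 0.665 and 0.886.

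**Figure D3:**
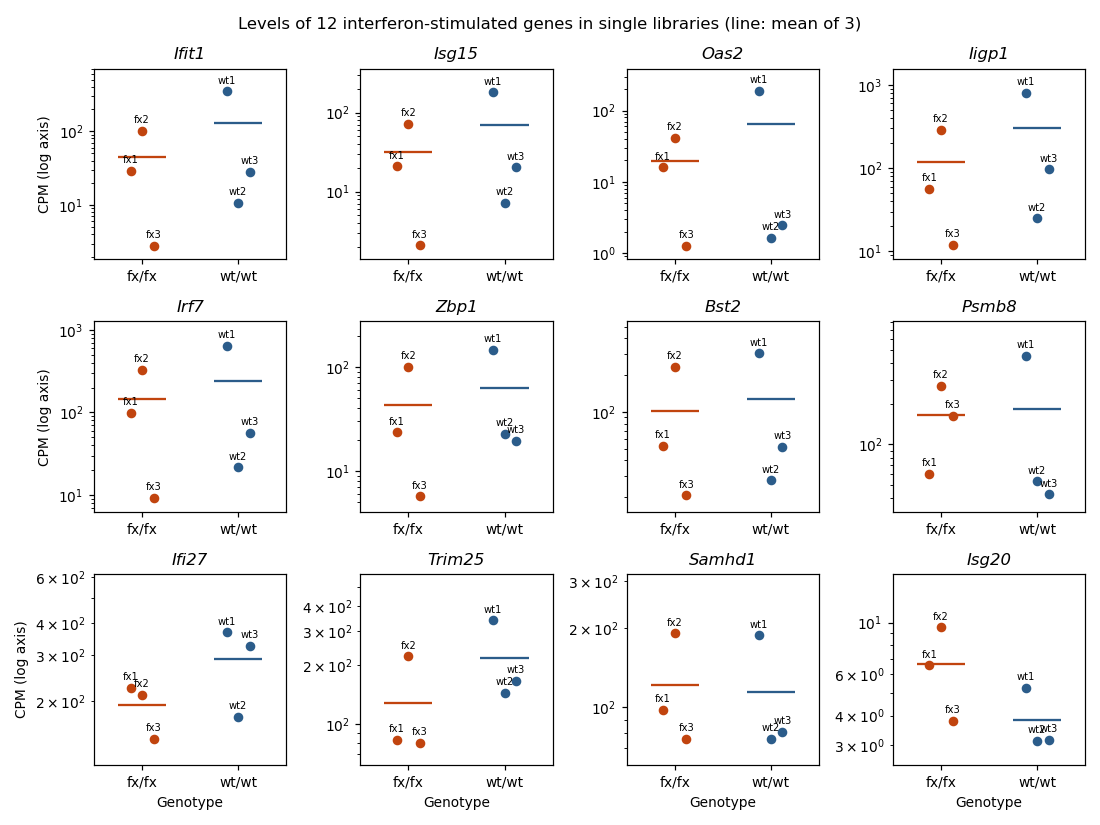
CPM on a log axis of 12 interferon-stimulated genes in the 3 fx/fx libraries (left in each panel) and the 3 wt/wt libraries (right), each point a library and each line a mean of 3. For Ifit1, Isg15, Oas2, Iigp1, Irf7, Zbp1 and Bst2 the points wt1 and fx2 lie above the other 4, fx3 lies lowest, and the spread within a genotype exceeds the gap between the means.

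Among the genes of the ISG15 system, Isg15 and Usp18 spanned the libraries far more than the ubiquitin ligases. Isg15 encodes a ubiquitin-like protein that is attached to other proteins (ENSMUSG00000035692, chromosome 4, 156199424 to 156200818, minus strand). It measured 20.9, 71.7 and 2.08 CPM in fx1 to fx3, against 181, 7.17 and 20.3 CPM in wt1 to wt3, which is a 34.4-fold span within fx/fx and a 25.3-fold span within wt/wt. Usp18, which removes ISG15 from proteins and also restrains the type I receptor, measured 21.5, 79.5 and 2.45 CPM in fx1 to fx3, against 212, 6.03 and 16.1 CPM in wt1 to wt3. Isg15 and Usp18 placed the 6 libraries in the same order. Trim25, a ubiquitin ligase that acts on the sensor encoded by Ddx58, measured 82.9, 222 and 79.97 CPM in fx1 to fx3, against 339.8, 145 and 166 CPM in wt1 to wt3. Here the fx/fx libraries other than fx2 lay below all wt/wt libraries, but fx2 lay above wt2 and wt3. Dtx3l and Parp9, which form a complex that joins ubiquitin ligase and ADP-ribosyltransferase, spanned 3.59-fold and 4.31-fold over the 6 libraries. Parp14, another ADP-ribosyltransferase, spanned 9.86-fold.

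The OAS family makes short oligoadenylates on double-stranded RNA, which activate RNase L. Oas2 (ENSMUSG00000032690, chromosome 5, 120730333 to 120749853, minus strand) measured 15.9, 41.1 and 1.26 CPM in fx1 to fx3, against 189, 1.63 and 2.44 CPM in wt1 to wt3. In wt1 it was 116-fold above wt2, the widest span of the 45 genes within wt/wt, while wt2, wt3 and fx3 lay close together. Oas1a measured 25.2, 88.2 and 15.03 CPM in fx1 to fx3, against 171, 12.7 and 42.1 CPM in wt1 to wt3. Its paralog Oas1g measured 6.88, 24.1 and 2.47 CPM in fx1 to fx3, against 42.1, 3.64 and 8.73 CPM in wt1 to wt3, with the same caution on shared reads as for Ifit3. In both paralogs wt1 was highest and fx2 next, and the lowest library was wt2 for Oas1a and fx3 for Oas1g. Oas3 measured 3.29, 10.97 and 0.558 CPM in fx1 to fx3, against 24.98, 0.603 and 0.851 CPM in wt1 to wt3. Oasl2 measured 52.3, 183 and 5.55 CPM in fx1 to fx3, against 468, 18.6 and 35 CPM in wt1 to wt3. Oas3 and Oasl2 had fx3 lowest, and in Oas3 wt2 and wt3 lay close to it. Oasl1, known in mice to hold back translation of Irf7, was the OAS gene in which fx2 came closest to wt1, at 14.7 CPM in fx2 and 17.1 CPM in wt1.

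Eif2ak2 and Isg20 act on double-stranded RNA and on RNA decay outside the OAS family. Eif2ak2, the kinase PKR that halts translation, measured 56.04, 159 and 42.98 CPM in fx1 to fx3, against 216, 38.9 and 78.8 CPM in wt1 to wt3. Isg20, an exonuclease, broke the common order (ENSMUSG00000039236, chromosome 7, 78913424 to 78920396, plus strand). It measured 6.57, 9.53 and 3.81 CPM in fx1 to fx3, against 5.25, 3.12 and 3.14 CPM in wt1 to wt3, so that fx2 and fx1 lay above wt1. Isg20 had the highest fold change of the 45 genes (log2 fold change 0.79, SE 0.43, edgeR adjusted p = 0.454), and the genotypes overlapped because wt1 lay above fx3.

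The interferon-induced GTPases include the Mx proteins, which block viral particles, and the guanylate-binding and immunity-related GTPases, which attack the vacuoles of intracellular pathogens. All 8 had wt1 highest, fx2 next and fx3 lowest among fx/fx. Iigp1 (ENSMUSG00000054072, chromosome 18, 60376029 to 60392627, plus strand) measured 56.1, 289 and 11.9 CPM in fx1 to fx3, against 797, 24.8 and 96.3 CPM in wt1 to wt3, and its level in wt1 was the highest CPM of the 45 genes in any library. Igtp measured 26.9, 81.3 and 17.6 CPM in fx1 to fx3, against 232, 17.6 and 30.9 CPM in wt1 to wt3. In Igtp the low libraries fx3 and wt2 were level, whereas in Iigp1 fx3 lay below wt2. Irgm1, a regulator of the other immunity-related GTPases, measured 55.6, 181 and 43.3 CPM in fx1 to fx3, against 327, 40.5 and 103 CPM in wt1 to wt3. Gbp2 measured 44.7, 72.3 and 24.2 CPM in fx1 to fx3, against 187, 33.9 and 33.1 CPM in wt1 to wt3. For Gbp2 the genotypes overlapped widely, with fx1 above wt2 and wt3. Gbp3 and Gbp7, neighbours on chromosome 3 that share sequence, spanned 24.1-fold and 6.99-fold over the 6 libraries. Mx1 measured 3.31, 12.3 and 0.824 CPM in fx1 to fx3, against 18.7, 1.54 and 2.55 CPM in wt1 to wt3. Mx2 measured 4.74, 23.98 and 1.26 CPM in fx1 to fx3, against 42.6, 4.75 and 6.33 CPM in wt1 to wt3. Many laboratory strains carry a deletion in Mx1 that abolishes the protein, and counts per gene do not show whether it is present here.

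Among the transcription factors, Irf7 spanned the libraries most and Irf1 least. Irf7, which amplifies interferon alpha genes, is listed as ENSMUSG00000025498, chromosome 7, 141262706 to 141266481, minus strand. It measured 98.5, 328 and 9.26 CPM in fx1 to fx3, against 639, 21.6 and 57.1 CPM in wt1 to wt3, a 35.4-fold span within fx/fx and a 29.6-fold span within wt/wt. Irf9, the DNA-binding partner of Stat2, measured 65.3, 156 and 65.7 CPM in fx1 to fx3, against 242, 110.2 and 106 CPM in wt1 to wt3. Stat2 measured 24.9, 82.2 and 18.6 CPM in fx1 to fx3, against 118, 29.2 and 31.8 CPM in wt1 to wt3. Both Irf9 and Stat2 had wt1 highest and fx2 next. Irf1, a target of interferon gamma, measured 34.5, 56.3 and 28.1 CPM in fx1 to fx3, against 78.01, 49.2 and 41.5 CPM in wt1 to wt3. In Irf1, Irf9 and Stat2 the low libraries of wt/wt, wt2 and wt3, lay above fx1 and fx3. They did so too in Trim25, Ifih1 and Rtp4, and in Mx2 with wt2 and fx1 nearly level.

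The sensors of foreign nucleic acid had similar mean levels per length, between 44.2 and 49.9 TPM. Zbp1, which binds Z-form nucleic acid and can trigger necroptosis, measured 23.6, 99.9 and 5.67 CPM in fx1 to fx3, against 146, 22.7 and 19.5 CPM in wt1 to wt3. Ddx58, the sensor RIG-I, measured 44.02, 168 and 13.5 CPM in fx1 to fx3, against 263, 33.95 and 64.02 CPM in wt1 to wt3. In both genes fx3 lay well below every other library. Ifih1, the sensor MDA5, measured 42.7, 182 and 38.5 CPM in fx1 to fx3, against 256, 59.1 and 73.8 CPM in wt1 to wt3. Dhx58, a regulator of both known as LGP2, measured 21.1, 75.05 and 13.1 CPM in fx1 to fx3, against 108, 20.8 and 24.2 CPM in wt1 to wt3. For Ifih1 fx3 lay close to fx1, and for Dhx58 wt2, wt3 and fx1 lay close together.

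Other antiviral effectors split into genes that followed wt1 and fx2 steeply and 1 that did not. Bst2, the tetherin that holds budding viruses at the cell surface, is listed as ENSMUSG00000046718, chromosome 8, 71534255 to 71537456, minus strand. It measured 52.8, 233 and 20.8 CPM in fx1 to fx3, against 302, 27.5 and 51.5 CPM in wt1 to wt3. The levels in wt1 and fx2 stood far above the other 4, which lay between 20.8 and 52.8 CPM. Rsad2, or viperin, measured 13.5, 76.1 and 3.98 CPM in fx1 to fx3, against 142, 10 and 19.5 CPM in wt1 to wt3. Cmpk2, a nucleotide kinase of mitochondria, measured 17.4, 61.6 and 4.49 CPM in fx1 to fx3, against 146, 10.7 and 22.02 CPM in wt1 to wt3. Rsad2 and Cmpk2 lie side by side on chromosome 12 and placed the libraries in the same order. Samhd1, which degrades the nucleotides needed for reverse transcription, measured 98.03, 190.3 and 76.3 CPM in fx1 to fx3, against 187, 76.3 and 80.7 CPM in wt1 to wt3. Its 2.495-fold span over the 6 libraries was the narrowest of the 45 genes, and fx2 lay slightly above wt1.

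The immunoproteasome subunits departed from the others in fx3. Psmb8, which replaces a constitutive catalytic subunit and changes the peptides presented on MHC class I, is listed as ENSMUSG00000024338, chromosome 17, 34197721 to 34201454, plus strand. It measured 60.8, 270.5 and 162 CPM in fx1 to fx3, against 448, 53.4 and 42.9 CPM in wt1 to wt3. Psmb9, another such subunit and its neighbour on chromosome 17, measured 23.7, 96.97 and 45.2 CPM in fx1 to fx3, against 154, 22.99 and 17.7 CPM in wt1 to wt3. In both genes fx3 ranked after wt1 and fx2 and above the 3 remaining libraries, a rank that fx3 otherwise had only in Dtx3l among the 45 genes. Tap1, the peptide transporter encoded beside Psmb9 and not one of the 45, measured 63.6, 284 and 96.7 CPM in fx1 to fx3, against 415, 75.5 and 65.6 CPM in wt1 to wt3, again with fx3 next after wt1 and fx2.

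Of the remaining interferon-induced genes, Ifi44 resembled the IFIT genes and Ifi27 did not. Ifi44 measured 46.97, 119.5 and 3.05 CPM in fx1 to fx3, against 401, 18.9 and 46.4 CPM in wt1 to wt3, and its 39.1-fold span within fx/fx was the widest of the 45. Ifi27 (ENSMUSG00000064215, chromosome 12, 103434211 to 103440239, plus strand) measured 225, 212 and 143 CPM in fx1 to fx3, against 368, 174 and 327 CPM in wt1 to wt3. It was the 1 gene of the 45 in which fx2 was not the highest fx/fx library, and wt3 was close to wt1. Xaf1, which counteracts an inhibitor of apoptosis, measured 12.1, 55.8 and 2.86 CPM in fx1 to fx3, against 99.2, 11.4 and 18.4 CPM in wt1 to wt3. Rtp4, a receptor transporter protein, measured 37.6, 197 and 22.4 CPM in fx1 to fx3, against 318, 76.4 and 98.3 CPM in wt1 to wt3, with fx1 and fx3 below all wt/wt libraries and fx2 above wt2 and wt3. Ifi35 spanned 4.16-fold.

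The span between libraries is given here by what the promoter windows held. The 18 genes with a match had a median ratio of highest to lowest library of 15.8 (range 5.57 to 165), and 18 of 18 reached 4-fold within wt/wt. The 16 genes without a match had a median of 9.56 (range 2.495 to 131), and 10 of 16 reached 4-fold within wt/wt. The 11 genes with no window in the table had a wider median than either, at 22.7, so the order of the medians depends on which genes the table covers. Samhd1, Irf1, Isg20, Irf9 and Trim25, whose spans were among the narrowest, held no ISRE core in these windows, while Irf7 and Ifi44, with wide spans, held none either. These are descriptions over genes that share the same 6 libraries, without a test.

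Against this spread, no genotype difference was detected. By the edgeR quasi-likelihood test with Benjamini-Hochberg adjustment over all genes, 0 of the 45 passed an adjusted p of 0.05, with adjusted p between 0.452 (Ifi27) and 0.963 (Psmb8). The background was 0.0%, since 0 of 16752 genes passed. DESeq2 called 0 of the 45 at an adjusted p under 0.05, where it called 4.97% of all genes, and limma-voom called 0 of the 45 and 0.0% of all genes. At an unadjusted p under 0.05 there were also 0 of the 45 by edgeR, DESeq2 and limma-voom, where the shares over all genes were 14.2%, 16.0% and 14.3%. The fx/fx and wt/wt libraries overlapped for 45 of 45 genes, and 19.7% of all genes tested did not overlap. The median SE of the log2 fold change was 1.02 for the 45 genes and 0.32 over all genes tested, so fold changes near 2-fold were not detectable for most of the 45 with 3 tumors a genotype.

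The direction of the fold changes rested on wt1. With all libraries, 43 of 45 genes had a log2 fold change (fx/fx over wt/wt) below 0, against 50.4% of all genes, with a median of -0.70 where all genes had -0.00426. Ifit1 averaged 44.2 ± 50.7 CPM in fx/fx and 129 ± 189.5 CPM in wt/wt (SD, n = 3 each), for example, with log2 fold change -1.54, SE 1.498, edgeR adjusted p = 0.699. Without wt1, 40 of 45 genes had a log2 fold change above 0 and the median was 0.79. Ifit1 then had a log2 fold change of 1.18, Isg15 1.197, Oas2 3.25 and Irf7 1.88, where all 6 libraries gave -1.54, -1.14, -1.73 and -0.72. The 5 genes that stayed below 0 without wt1 were Ifi27 (-0.38), Trim25 (-0.28), Irf1 (-0.20), Irf9 (-0.18) and Rtp4 (-0.03). Isg20 and Samhd1 were above 0 in both fits, at 0.79 and 0.08 with all libraries. Without fx2 the median was -1.90 and 44 of 45 genes were below 0.

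**Figure D4:**
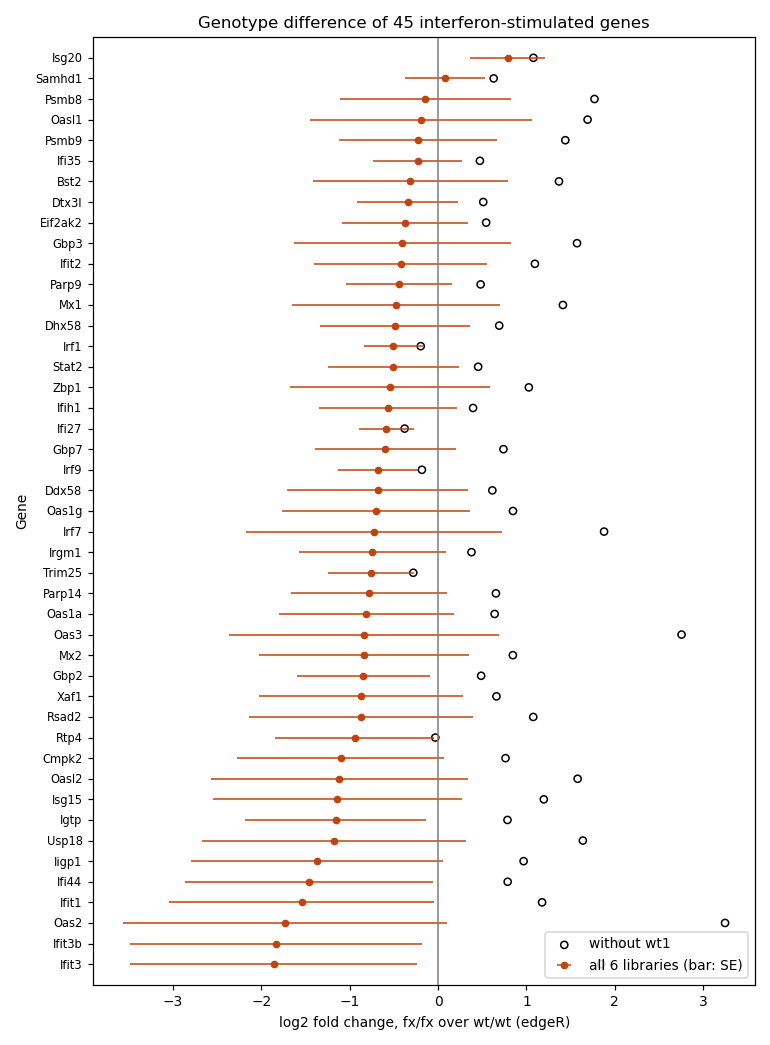
The log2 fold change of fx/fx over wt/wt for each of the 45 genes, with all 6 libraries (filled points, bars 1 SE) and without wt1 (open circles), ordered by the fold change with all libraries. Most filled points lie left of 0 and most open circles right of it, with medians of -0.70 and 0.79.

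The 5 genes with the smallest edgeR p of the 45 each spanned 4.25-fold or less over the 6 libraries. Ifi27 averaged 193 ± 43.8 CPM in fx/fx and 289.6 ± 102 CPM in wt/wt (SD, n = 3 each), with log2 fold change -0.58, SE 0.31, edgeR adjusted p = 0.452. Isg20 averaged 6.63 ± 2.86 CPM in fx/fx and 3.84 ± 1.22 CPM in wt/wt (SD, n = 3 each), with an edgeR adjusted p of 0.454. Trim25 averaged 128 ± 81.1 CPM in fx/fx and 217 ± 107 CPM in wt/wt (SD, n = 3 each), with log2 fold change -0.76, SE 0.49, edgeR adjusted p = 0.532. Irf1 averaged 39.6 ± 14.8 CPM in fx/fx and 56.2 ± 19.2 CPM in wt/wt (SD, n = 3 each), and Irf9 95.6 ± 52.03 CPM in fx/fx and 153 ± 77.1 CPM in wt/wt (SD, n = 3 each), with edgeR adjusted p of 0.54 and 0.546. The next 7 genes by p, Ifit3, Igtp, Gbp2, Ifit3b, Rtp4, Ifi44 and Ifit1, had log2 fold changes between -1.86 and -0.85, with SEs between 0.75 and 1.65. Without fx2, Trim25, Rtp4, Irf9, Irf1 and Ifih1 had an unadjusted edgeR p under 0.05 (5 of 45, where all genes had 17.7%), and the edgeR adjusted p was 0.152 or more. Without wt1, Psmb8, Psmb9 and Oas3 did so with positive fold changes (3 of 45, where all genes had 9.94%), and the edgeR adjusted p was 0.446 or more. Without fx3 it was Isg20 (1 of 45, where all genes had 12.9%), and without wt2 it was Ifi27 (1 of 45, where all genes had 11.3%). Without fx1 or wt3 it was 0 of 45, where all genes had 9.81% and 11.4%. The genes in these counts were named after their values were seen.

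The ligands were at the limit of detection in all tumors. Over 13 interferon genes, summed counts were 2, 1 and 2 in fx1, fx2 and fx3, and 7, 7 and 3 in wt1, wt2 and wt3, and 6 of the 13 had no count in any library. Ifnb1, the first type I interferon made by many cells, had 1, 1 and 0 counts in fx1, fx2 and fx3, and 1, 0 and 2 counts in wt1, wt2 and wt3. Ifng, made by T and NK cells, had 0, 0 and 1 counts in fx1, fx2 and fx3, and 1, 5 and 0 counts in wt1, wt2 and wt3. A count of 0 allows up to 3 counts, or between 0.056 and 0.0817 CPM, here on total counts without TMM scaling. At this depth a difference in the ligands that followed wt1 and fx2 was not detectable, and 0 of the 13 passed the filter on low counts.

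Receptors and kinases were expressed in all tumors. The highest 2 libraries were wt1 and fx2 in 0 of the 6 receptor chains, which is near the background of 5.25%. They were so in 1 of the 5 Jak kinase and Stat genes. Ifnar1 measured 84.6, 63.3 and 72.4 CPM in fx1 to fx3, against 67.1, 63.4 and 62.8 CPM in wt1 to wt3. Ifnar2 measured 76.7, 51.2 and 44.99 CPM in fx1 to fx3, against 48.03, 38.9 and 49.9 CPM in wt1 to wt3. Both chains of the type I receptor were thus present in every library. Ifngr1, a chain of the gamma receptor, measured 35.6, 38.1 and 33.4 CPM in fx1 to fx3, against 29.2, 34.04 and 33.7 CPM in wt1 to wt3. Ifngr2 measured 81.2, 57.7 and 56.9 CPM in fx1 to fx3, against 52.1, 46.2 and 65.7 CPM in wt1 to wt3. Over the 6 receptor chains the median relative to the mean of all libraries was 0.38, -0.004 and -0.11 in fx1 to fx3, and -0.12, -0.23 and -0.01 in wt1 to wt3 (log2), with fx1 the highest. Ifnlr1, the chain specific to type III interferons, had the smallest p of these (log2 fold change -0.81, SE 0.37, edgeR adjusted p = 0.3803). Il10rb, which pairs with it, measured 74.6, 38.01 and 37.99 CPM in fx1 to fx3, against 38.9, 34.6 and 49.2 CPM in wt1 to wt3. The kinases Jak1, Jak2 and Tyk2 had log2 fold changes between -0.10 and -0.01, with edgeR adjusted p of 0.892 or more. Stat3, which serves other cytokine receptors as well, measured 303, 359 and 249 CPM in fx1 to fx3, against 317, 369 and 230 CPM in wt1 to wt3.

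Among 16 sensors, adaptors and kinases upstream of interferon production, 0 passed the edgeR adjusted threshold and 2 did not overlap between genotypes, where 19.7% of all genes did not. These 16 had 1 gene higher and 0 lower in fx/fx at an unadjusted edgeR p under 0.05 (background 8.18% and 6.04%). Tmem173, which encodes the adaptor STING, measured 29.2, 13.6 and 12.1 CPM in fx1 to fx3, against 7.55, 10.3 and 9.47 CPM in wt1 to wt3, without overlap (log2 fold change 1.01, SE 0.38, edgeR adjusted p = 0.2998). Mavs, the adaptor of Ddx58 and Ifih1, measured 68, 70.02 and 85.3 CPM in fx1 to fx3, against 66.5, 32.2 and 56.7 CPM in wt1 to wt3, also without overlap (log2 fold change 0.52, SE 0.28, edgeR adjusted p = 0.443). Cgas, the sensor upstream of STING, measured 5.02, 14.96 and 7.34 CPM in fx1 to fx3, against 14.2, 8.71 and 9.14 CPM in wt1 to wt3, with fx2 and wt1 highest. In 5 of the 16 genes, Cgas among them, wt1 and fx2 were the highest 2 libraries (background 5.25%). The kinase gene Ikbke had a log2 fold change of 1.01 and Nod1, a sensor of bacterial peptides, -0.53, with edgeR adjusted p of 0.353 and 0.398. Of 6 other Irf genes, 2 did not overlap between genotypes, and 1 was higher and 0 lower in fx/fx at an unadjusted edgeR p under 0.05. DESeq2 called 1 of the 6, where it called 4.97% of all genes, and edgeR called 0. Their log2 fold changes lay between -0.11 and 1.39. Irf4 (log2 fold change 1.09) was 1 of those without overlap, at 0.616 CPM or less in every library, and Irf2 had a log2 fold change of 0.29. Of 9 feedback inhibitors, 1 was higher and 0 lower at an unadjusted p under 0.05. Ptpn2, a phosphatase that acts on Jak1, measured 45.3, 35.2 and 40.2 CPM in fx1 to fx3, against 23.9, 26.2 and 28.02 CPM in wt1 to wt3, without overlap (log2 fold change 0.63, SE 0.18, edgeR adjusted p = 0.217). Socs1, which is interferon-induced and blocks Jak kinases, measured 1.41, 2.94 and 0.751 CPM in fx1 to fx3, against 5.23, 1.47 and 1.66 CPM in wt1 to wt3, with wt1 highest and fx2 next. Socs3 measured 5.04, 8.03 and 2.84 CPM in fx1 to fx3, against 1.99, 3.95 and 1.66 CPM in wt1 to wt3, with fx2 highest and wt3 lowest.

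A list of 67 further interferon-stimulated genes showed the same pattern by tumor, less steeply. Of the 64 tested, 51 had wt1 and fx2 as their highest libraries (background 5.25%), 61 had wt1 as the highest wt/wt library and 54 had fx2 as the highest fx/fx library. Their median relative to the mean of all libraries was -0.18, 0.80 and -0.68 in fx1 to fx3, and 1.27, -0.60 and -0.47 in wt1 to wt3 (log2). The median log2 fold change was -0.33, with 20 genes above and 44 below 0, and 0 passed edgeR or DESeq2. At an unadjusted edgeR p under 0.05 there was 1 of the 64 higher and 0 lower, fewer than the 8.18% and 6.04% of all genes. The 1 gene was Ifitm2, which restricts viral entry, at 145, 121 and 137 CPM in fx1 to fx3, against 104, 105 and 96.95 CPM in wt1 to wt3 (log2 fold change 0.39, SE 0.16, edgeR adjusted p = 0.319). The next by p were Pml, the organiser of nuclear bodies, with a log2 fold change of 0.68, and Gbp6 with -1.604. The chemokine Cxcl10, a standard target of both interferon types, measured 1.17, 3.77 and 0.388 CPM in fx1 to fx3, against 4.07, 0.513 and 0.655 CPM in wt1 to wt3. Its levels were low, with wt1 highest and fx2 next.

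**Figure D5:**
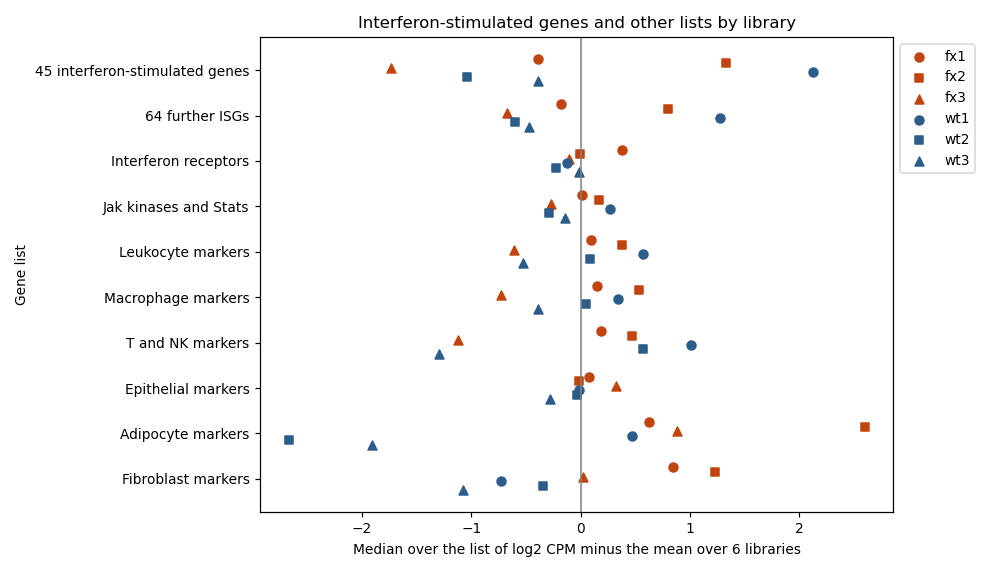
Median over the genes of each list (rows) of log2 CPM minus the gene's mean over 6 libraries (horizontal axis), 1 point a library, fx/fx in red and wt/wt in blue. In the 2 interferon-stimulated lists wt1 and fx2 lie to the right of the other libraries, and the receptor list stays between 0.38 (fx1) and -0.23 (wt2).

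Summed over each list, leukocyte markers spanned the 6 libraries less widely than the 45 genes did. The 3 pan-leukocyte markers (Ptprc, Coro1a and Laptm5) were highest in wt1 and fx2 and summed to 89.6, 112 and 53.7 CPM in fx1 to fx3, and 116, 88.7 and 61.9 CPM in wt1 to wt3, a 2.17-fold span. The 10 macrophage and monocyte markers summed to 410.1, 531 and 232 CPM in fx1 to fx3, and 468, 379 and 280.1 CPM in wt1 to wt3, a 2.29-fold span, with fx2 and wt1 highest. Adgre1, which encodes F4/80, measured 21.9, 26.2 and 13.6 CPM in fx1 to fx3, against 25.2, 19.8 and 14.7 CPM in wt1 to wt3. The 8 T and NK cell markers summed to 12.5, 14.2 and 5.02 CPM in fx1 to fx3, and 25.5, 18.5 and 6.07 CPM in wt1 to wt3. Here wt1 was highest, wt2 next and fx3 lowest. The 6 dendritic cell markers summed to 15.2, 17.96 and 10.3 CPM in fx1 to fx3, and 18.9, 10.7 and 7.57 CPM in wt1 to wt3, with wt1 and fx2 highest. Itgax took most of this sum, at 11.7, 15.3 and 7.81 CPM in fx1 to fx3, against 13, 9.31 and 6.81 CPM in wt1 to wt3. It was the 1 of 5 tested genes of the list with wt1 and fx2 highest. The median of the list relative to the mean of all libraries was higher in fx1 (0.58) than in fx2 (0.21) (log2). Siglech, which marks plasmacytoid dendritic cells, measured 0.734, 1.23 and 0.945 CPM in fx1 to fx3, against 0.775, 0.179 and 0.218 CPM in wt1 to wt3. The B and plasma cell list summed to 1.58 CPM or less and the neutrophil list to 5.55 CPM or less in every library, with Ly6g at 0 in 5 of 6. The sums of the dendritic cell list and of the T and NK cell list spanned 2.5-fold and 5.08-fold, that of the 45 genes 8.46-fold. Single markers could span more than their list. Fcgr1 spanned 5.36-fold, with wt1 highest and fx2 next, and Ly6c2 70.7-fold, at 1.58 CPM or less in every library. In 7 of the 10 macrophage and monocyte markers, these 2 among them, wt1 and fx2 were the highest 2 libraries (background 5.25%). The part of leukocytes in the interferon pattern was not tested.

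Adipocyte markers had fx2 highest among fx/fx and wt1 highest among wt/wt, as the interferon-stimulated genes did. Adipoq, the adipokine adiponectin, measured 4.83, 19.1 and 5.79 CPM in fx1 to fx3, against 4.34, 0.625 and 0.589 CPM in wt1 to wt3, and the 5 markers summed to 50.8, 160.3 and 68.9 CPM in fx1 to fx3, and 38.97, 15.5 and 18.7 CPM in wt1 to wt3. Unlike the interferon-stimulated genes, their sum was higher in every fx/fx library than in any wt/wt library. Fibroblast markers summed to 714, 1063 and 598 CPM in fx1 to fx3, and 288, 382 and 217 CPM in wt1 to wt3, with wt1 below wt2. Endothelial markers summed to 186, 168 and 94.4 CPM in fx1 to fx3, and 103, 81.01 and 97.7 CPM in wt1 to wt3. Epithelial markers summed to 7078, 5550 and 6916 CPM in fx1 to fx3, and 5558, 6179 and 4188 CPM in wt1 to wt3. The endothelial sum was highest in fx1, with fx2 next and wt1 the highest of wt/wt. The epithelial sum was also highest in fx1, and fx2 was the lowest of fx/fx. Erythroid markers summed to 627, 534 and 576 CPM in fx1 to fx3, and 118, 296 and 242 CPM in wt1 to wt3, with wt1 lowest. Of the mast cell markers, Kit took nearly all of the sum, and Cpa3 measured 1.19, 0.857 and 0.485 CPM in fx1 to fx3, against 0.0886, 0.2902 and 0.196 CPM in wt1 to wt3. The part of these cells in the interferon pattern was not tested.

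The pattern was spread over the genome. The 45 genes lie on 15 chromosomes, and on each of these the median of the members was above 0 in wt1 and in fx2 (log2, relative to the mean of all libraries). Chromosomes 6, 8, 10, 14 and 18 hold 1 member each, so their medians are values of 1 gene. Every one of the 45 lay above 0 in wt1, by 0.126 or more, so the medians in wt1 could not lie below 0. The medians of all genes tested on those chromosomes lay between -0.51 (chromosome 4 in fx3) and 0.33 (chromosome 2 in fx2). Genes of chromosome 4 as a whole had a median log2 fold change of -0.51, and 2 members lie there, Isg15 and Ddx58. Their log2 fold changes were -1.14 and -0.68. Chromosome 2, where Ifih1, Zbp1 and Samhd1 lie, had a median of 0.33 in fx2 alone, and these 3 genes had a median of 1.12 in fx2. With each gene's chromosome median taken off, the median log2 fold change of the 45 genes was -0.63, against -0.70.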

How the data were processed

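RNA from 6 NIC+ mouse tumors (3 fx/fx, 3 wt/wt) was sequenced. The deposited values are raw counts of read pairs per gene, made by the authors with featureCounts 1.6.0 on the Ensembl 93 annotation of GRCm38, reverse-stranded (option 2) and with both ends aligned, per the file headers. The submitters' processing notes name STAR 2.5.1b, FastQC 0.11.5, featureCounts 1.4.6 and DESeq2 1.12.3. No header option counted multiply aligned reads, so near-identical genes can lose reads. GENCODE M21 (GRCm38) gave symbols for 54165 of 54232 identifiers.

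Genotypes were compared with edgeR 4.0.16 (filterByExpr, TMM, quasi-likelihood, robust=TRUE, 2-sided, Benjamini-Hochberg over 16752 genes, threshold 0.05) in R 4.3.3. The SE is the log2 fold change over the root of F. DESeq2 1.42.0, limma 3.58.1 (voom), other scalings, no filter, a replicate block and leaving out each library were alternatives. Log2 CPM for deviations had a prior count of 2. Steps were tested on simulated counts. Intervals and floors cover counting error only.

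The 45 genes and all lists were chosen with earlier results of these data known. Values per library were given for the 12 members of smallest edgeR p, the most abundant member by TPM in each role group and the 3 members of widest ratio in each genotype, and for further members to complete each role. Some genes of the pathway lists are not reported here.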

Additional observations from a re-analysis of the deposited data

How the results depend on the processing

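With RLE or upper-quartile scaling, no filter on low counts, DESeq2, limma-voom, robust=FALSE or the replicate block, 0 of the 45 interferon-stimulated genes were called and 0 had an unadjusted p under 0.05. Their median log2 fold change lay between -0.70 and -0.54 under these settings, was -0.63 with chromosome medians taken off and -0.68 without near-identical paralogs. Replicate numbers carry no stated pairing, and same-numbered libraries did not deviate together (correlations of -0.085, -0.0946 and 0.0569). With the replicate block the median was -0.69, and 0 genes of all tested were called. Over all genes the count of calls was 0 by edgeR, 831 with DESeq2 and 38 without the filter. With each library left out in turn, calls over all genes ranged from 0 to 2 (2 without fx2), members at an unadjusted p under 0.05 from 0 to 5 (5 without fx2), and called members were 0. The median log2 fold change ranged from -1.90 (without fx2) to 0.79 (without wt1), and was -0.29 without fx3 and -0.49 without fx1.

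Without wt1, 40 of the 45 genes were above 0, where 2 were with all libraries. Of the 20 genes chosen by the naming rule, 14 turned sign without wt1, that of Bst2 also without fx3 and that of Psmb8 also without fx1. The ranges were -1.78 to 1.37 for Bst2, -1.29 to 0.49 for Gbp2, -2.63 to 0.79 for Ifi44, -3.01 to 1.18 for Ifit1, -2.47 to 1.85 for Ifit3, -2.67 to 2.07 for Ifit3b and -2.07 to 0.79 for Igtp. They were -3.17 to 0.97 for Iigp1, -2.15 to 1.88 for Irf7, -2.59 to 1.197 for Isg15, -1.90 to 0.64 for Oas1a, -2.90 to 3.25 for Oas2, -0.70 to 1.77 for Psmb8 and -2.10 to 1.03 for Zbp1. Oas2 was at 0.046 and Psmb8 at 0.47 with limma-voom, and Psmb8 at 0.80 with the replicate block, where the cause was not tested. Isg20 stayed above 0, and Ifi27, Irf1, Irf9, Rtp4 and Trim25 below 0, under every alternative listed. With 3 libraries a genotype and fold changes whose SE has a median of 1.02 (log2), differences of about 2-fold could not be detected for most members.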
